A study of Mus musculus with 10 samples.

Results

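The 10 genes described here encode immediate early transcription factors: Fos, Fosb, Jun, Junb, Jund, Egr1, Egr2, Egr3, Atf3 and Nr4a1. They were found by exact match of their names in the deposited table of raw counts, where each had 1 row, so they make up 10 of its 40789 genes. RNA was measured in microglia, the resident macrophages of the brain, taken from the cortex of 10 female mice with 1 library per mouse. The LPS group (n = 5) received 4 mg/kg lipopolysaccharide, a bacterial cell wall component, into the peritoneum, and the saline group (n = 5) received saline the same way. All mice were 2 to 3 months old, were on the C57BL6/J background and were killed 24 hours after the injection. Mice of both groups carried 1 fractalkine receptor allele replaced by a green fluorescent reporter (CX3CR1+/egfp), so the LPS group differed from the saline group by the injection and not by genotype. Per the labels' protocols, the perfused cortex was homogenised in a dounce, a Percoll gradient was used to enrich leukocytes, and the cells brightest for the reporter were sorted. The sources used here give neither the temperature nor the duration of these steps.

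Immediate early genes are transcribed within minutes of a stimulus, without the need for new protein, and their transcripts are short-lived. FOS and FOSB pair with JUN, JUNB or JUND, and JUN proteins also pair with each other, to form AP-1, which binds promoters and enhancers of many inducible genes. EGR proteins bind GC-rich sites through zinc fingers, ATF3 is a stress-induced factor that dimerises with AP-1 proteins, and NR4A1 is an orphan nuclear receptor. In macrophages and microglia these genes respond to inflammatory stimuli, and they are also known to be induced in cells while tissue is being dissociated.

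Total counts were 12928007 to 15332121 in the LPS libraries and 11577295 to 15274421 in the saline libraries. Levels below are CPM (read counts relative to a library size scaled with TMM factors), and each log2 fold change is that of LPS over saline. A gene was called at an edgeR adjusted p under 0.05, which held for 45% of all tested genes, 22.4% higher and 22.5% lower in LPS. The microglial label was borne out by high levels of defining markers: Tmem119 had 899 ± 179 CPM in LPS and 1058 ± 246 CPM in saline (SD, n = 5 each), and was not called, and all 10 markers on the microglia list passed the filter. Their summed level was 17173 to 30749 CPM in LPS and 54157 to 61680 CPM in saline, with 6 of the 10 called lower and 1 higher by edgeR. P2ry12, a purinergic receptor of resting microglia, was among those lower, at 2419 ± 1024 CPM in LPS and 21585 ± 3362 CPM in saline (log2 fold change -3.16, edgeR adjusted p = 8.12e-07), as was Cx3cr1, the fractalkine receptor gene that carries the reporter, at 1476 ± 667 CPM in LPS and 4134 ± 736 CPM in saline (-1.49, edgeR adjusted p = 0.000819). In bulk samples such as these, fewer cells of a type and less RNA per cell cannot be told apart. Replicate numbers follow the order in which the samples were listed. The sample titles carry mouse numbers that fall into 3 ranges: a low range with LPS replicates 1 and 2 and saline replicates 1 and 2, a middle range with LPS replicate 3 and saline replicates 3 and 4, and a high range with LPS replicates 4 and 5 and saline replicate 5. The mice of LPS replicate 1 and saline replicate 1 have neighbouring numbers.

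The sequences just upstream of 5 of these genes are shown first. Cyclic AMP response elements, bound by CREB and ATF proteins, are known in promoters of this class. Whether such elements bear on the levels of these genes here was not tested. The sequences are the 250 bases before the RefSeq start on GRCm38.p6, written 5′ to 3′ on the strand of the gene, with the core TGACG, or its reverse complement CGTCA, in capitals. These 5 are the members whose windows lie wholly outside their own annotated gene, 3 with the core and 2 without it.
Fos (chr12:85473640-85473889, + strand): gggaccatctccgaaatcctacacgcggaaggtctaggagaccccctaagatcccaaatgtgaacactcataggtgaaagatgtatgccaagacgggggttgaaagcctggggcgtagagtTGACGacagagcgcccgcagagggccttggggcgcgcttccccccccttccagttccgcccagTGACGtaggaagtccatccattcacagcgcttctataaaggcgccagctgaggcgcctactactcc
Jun (chr4:95052223-95052472, - strand): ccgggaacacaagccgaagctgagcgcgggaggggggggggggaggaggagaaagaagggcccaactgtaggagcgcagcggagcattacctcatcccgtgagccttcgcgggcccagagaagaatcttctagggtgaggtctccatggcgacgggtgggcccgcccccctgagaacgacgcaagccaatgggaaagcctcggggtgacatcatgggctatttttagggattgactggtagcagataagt
Junb (chr8:84978749-84978998, - strand): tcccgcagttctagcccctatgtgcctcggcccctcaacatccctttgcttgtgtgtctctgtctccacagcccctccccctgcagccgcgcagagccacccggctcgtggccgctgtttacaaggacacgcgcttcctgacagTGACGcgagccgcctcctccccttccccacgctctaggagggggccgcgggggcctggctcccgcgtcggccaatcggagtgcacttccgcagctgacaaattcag
Jund (chr8:70697489-70697738, + strand): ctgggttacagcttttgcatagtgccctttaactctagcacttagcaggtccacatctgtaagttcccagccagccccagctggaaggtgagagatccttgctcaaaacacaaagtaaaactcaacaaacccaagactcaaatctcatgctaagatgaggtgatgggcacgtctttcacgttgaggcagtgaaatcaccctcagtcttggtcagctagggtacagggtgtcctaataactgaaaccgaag
Atf3 (chr1:191183334-191183583, - strand): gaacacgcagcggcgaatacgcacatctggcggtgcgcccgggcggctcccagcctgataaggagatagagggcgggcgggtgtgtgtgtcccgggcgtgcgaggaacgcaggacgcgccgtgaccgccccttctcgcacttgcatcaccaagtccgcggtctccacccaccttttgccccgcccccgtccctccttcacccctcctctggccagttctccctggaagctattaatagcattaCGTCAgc

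RefSeq gave 12 such windows for 8 of the members, 1 each but 5 for Egr2, some of which overlap each other. Counted per window, 8 of the 12 held TGACG on either strand (3 of the 5 of Egr2 and those of Atf3, Fos, Fosb, Junb and Nr4a1), while 17.8% of all 32851 windows of the same length held it. In the windows printed above, Fos had 2 copies that begin 129 and 66 bases before the start, Junb had 1 at 106 bases and Atf3 had 1 at 7 bases before it. Jun and Jund had none. Among windows not printed, that of Nr4a1 had 4 copies and that of Fosb had 1. The full palindrome TGACGTCA was in 0 of the 12 windows and in 1.55% of all windows. The AP-1 site, TGACTCA or its reverse complement TGAGTCA, was also in 0 of 12, against 4.46% of all windows. A CArG box, the binding element of serum response factor, was found on either strand in 4 of the 12, all of them windows of Egr2, and in 1.47% of all windows. The 3 Egr2 windows with TGACG overlap and hold the same 2 copies and the same CArG box, so these sites are counted more than once. Counted by gene, TGACG was in 6 of the 8 members and a CArG box in 1. A match describes letters in a window and does not show that a factor binds there, and the lack of one says only that these letters are not in these 250 bases.

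Among the FOS genes, Fos varied up to 25.9-fold between mice, and its levels in LPS and saline mice overlapped over nearly the whole range. Fos (Entrez gene 14281, chromosome 12, 85473890 to 85477274 on GRCm38) encodes the founding AP-1 subunit that needs a JUN partner to bind DNA. It had 811, 279, 92.3, 233 and 88.1 CPM in LPS replicates 1 to 5 and 799.8, 286, 166, 84.4 and 31.3 CPM in saline replicates 1 to 5. The highest mouse of each group stood far above the other 4, and these top levels nearly coincided. Fos averaged 301 ± 298 CPM in LPS and 274 ± 310 CPM in saline (SD, n = 5 each), with a log2 fold change of 0.14 ± 0.985 (SE, edgeR adjusted p = 0.889). By limma-voom the log2 fold change was 0.42, and its 95% interval, -1.17 to 2.00, spans both a fall and a rise of more than 2-fold.

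Fosb (chromosome 7, 19302696 to 19310118), a FOS relative with a long-lived splice form, had the same order of mice at far lower counts. It had 11.9, 2.00, 0.621, 1.14 and 0 CPM in LPS replicates 1 to 5 and 29.1, 7.47, 4.04, 1.68 and 0.356 CPM in saline replicates 1 to 5. The count of 0 in LPS replicate 5 allows up to 0.234 CPM at 3 counts, for counting error only. Fosb reads summed to 194 in LPS and 612 in saline, and the mouse with the highest level held most of them in both groups. The log2 fold change was -1.46 ± 1.42 (SE, edgeR adjusted p = 0.258), and by limma-voom it was -1.94 with an interval of -4.98 to 1.10. This was the one member whose call rested on a library: without LPS replicate 1 the log2 fold change was -3.15 and Fosb was called lower (edgeR adjusted p = 0.0251), in a fit that called 20.9% of all genes lower, while without saline replicate 1 it was -0.12.

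**Figure D1:**
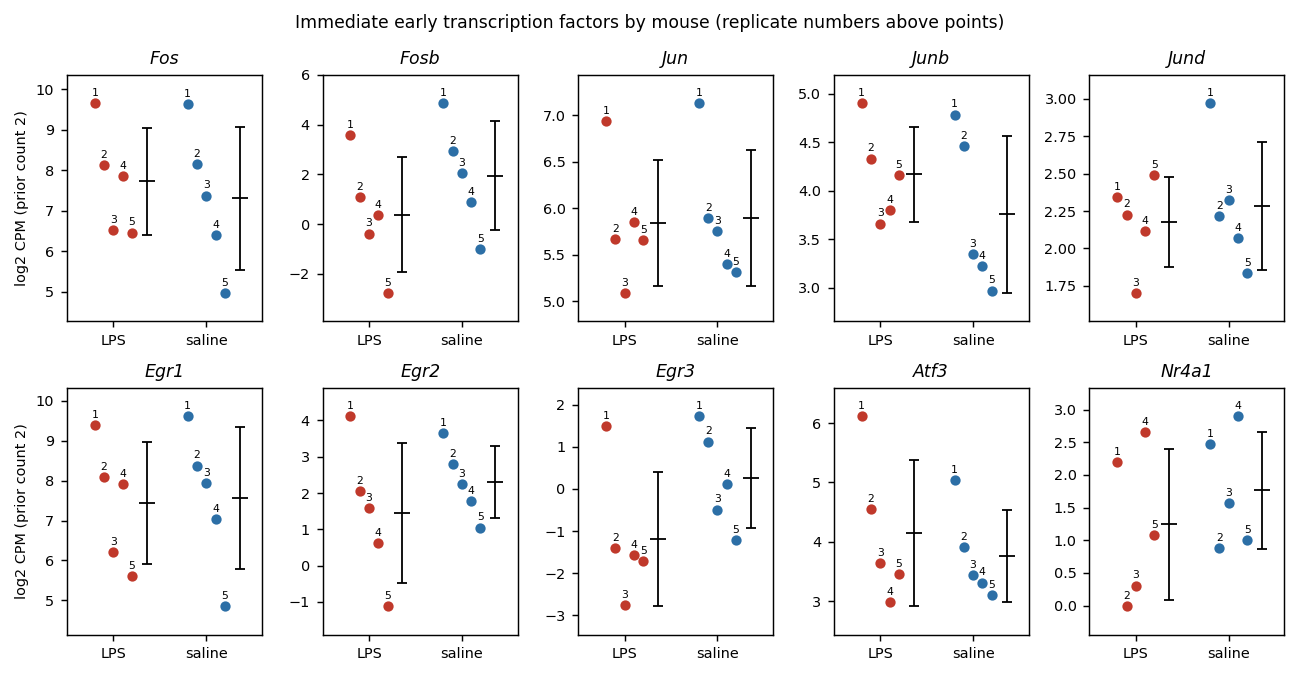
Level of each of the 10 genes in each mouse, as log2 CPM with a prior count of 2, LPS mice in red at left and saline mice in blue at right, with replicate numbers above the points and the group mean ± SD as bars (n = 5 each). Axis ranges differ between panels; replicate 1 was the highest mouse of its group in 8 of 10 panels for LPS and 9 of 10 for saline, and the groups overlap in every panel.

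The JUN genes spread less than Fos, and none was called. Jun (chromosome 4, 95049036 to 95052222), which can dimerise with itself or with FOS, had 122, 50.8, 33.9, 57.7 and 50.4 CPM in LPS replicates 1 to 5 and 139.8, 59.2, 54.0, 42.1 and 39.6 CPM in saline replicates 1 to 5. In each group replicate 1 was more than 2-fold above the next mouse and the other 4 mice lay close together. Jun averaged 62.9 ± 34.1 CPM in LPS and 67.0 ± 41.6 CPM in saline (SD, n = 5 each), a log2 fold change of -0.09 ± 0.444 (SE, edgeR adjusted p = 0.853, limma-voom interval -0.81 to 0.68).

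Junb (chromosome 8, 84976909 to 84978748), a JUN protein that can restrain JUN activity, had 29.8, 19.97, 12.5, 13.8 and 17.7 CPM in LPS replicates 1 to 5 and 27.4, 21.9, 10.02, 9.17 and 7.69 CPM in saline replicates 1 to 5. Its lowest 3 saline mice were below every LPS mouse, while its highest 2 saline mice were above 4 of the 5 LPS mice. The log2 fold change was 0.30 ± 0.423 (SE, edgeR adjusted p = 0.5, limma-voom interval -0.32 to 1.14). Jund (chromosome 8, 70697739 to 70700616), the JUN gene that is best known for steady expression in resting cells, had 4.94, 4.53, 3.11, 4.18 and 5.48 CPM in LPS replicates 1 to 5 and 7.71, 4.50, 4.85, 4.06 and 3.42 CPM in saline replicates 1 to 5. It had the smallest range of the 10 genes, 1.76-fold in LPS and 2.25-fold in saline, and a log2 fold change of -0.14 ± 0.233 (SE, edgeR adjusted p = 0.689, limma-voom interval -0.69 to 0.45).

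Egr1 followed Fos mouse by mouse, and no EGR gene was called. Egr1 (chromosome 18, 34861207 to 34864956), an activator induced by growth factors and neuronal activity and, in macrophages, during differentiation, had 669.6, 271, 74.1, 242 and 48.5 CPM in LPS replicates 1 to 5 and 782, 332, 244, 131 and 28.7 CPM in saline replicates 1 to 5. As for Fos, replicate 1 was highest and replicate 5 lowest in both groups. It averaged 261 ± 249 CPM in LPS and 304 ± 291 CPM in saline (SD, n = 5 each), a log2 fold change of -0.22 ± 1.05 (SE, edgeR adjusted p = 0.818, limma-voom interval -1.80 to 1.56).

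Egr2 (chromosome 10, 67534469 to 67542188), known for its role in myelinating Schwann cells and in macrophage and lymphocyte responses, had 17.2, 4.00, 2.87, 1.39 and 0.313 CPM in LPS replicates 1 to 5 and 12.5, 6.79, 4.61, 3.31 and 1.92 CPM in saline replicates 1 to 5. LPS replicate 1 was above every saline mouse and LPS replicates 4 and 5 were below every saline mouse, a 54.8-fold range within LPS against 6.47-fold within saline. The log2 fold change was -0.19 ± 0.966 (SE, edgeR adjusted p = 0.847), and by limma-voom it was -0.99 with an interval of -2.59 to 0.61. Egr3 (chromosome 14, 70077317 to 70082613), an EGR gene known to act downstream of calcineurin signals in lymphocytes, was too low for the filter and was not tested. Its raw counts were 32, 3, 0, 3 and 2 in LPS replicates 1 to 5 and 48, 24, 7, 15 and 4 in saline replicates 1 to 5, or 40 and 98 reads in all. Most LPS reads of Egr3 came from the mouse that was also highest for Fos, and the 0 in LPS replicate 3 allows up to 0.232 CPM at 3 counts.

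Atf3 had the largest positive edgeR fold change of the 9 tested genes, which rested on 1 mouse. Atf3 (chromosome 1, 191170296 to 191183333), which is known to limit Toll-like receptor responses in macrophages, had 69.1, 23.2, 12.3, 7.80 and 10.8 CPM in LPS replicates 1 to 5 and 32.6, 14.9, 10.8, 9.80 and 8.47 CPM in saline replicates 1 to 5. Replicate 1 was again highest in both groups, and the other 4 mice lay between 7.80 and 23.2 CPM in LPS and between 8.47 and 14.9 CPM in saline. The log2 fold change was 0.68 ± 0.651 (SE, edgeR adjusted p = 0.311), and without LPS replicate 1 it was -0.16. By limma-voom the log2 fold change of Atf3 was 0.35 (interval -0.75 to 1.44), below the 0.42 of Fos and the 0.41 of Junb.

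Nr4a1 did not share the order of mice seen in the other genes. Nr4a1 (chromosome 15, 101253902 to 101274795), a nuclear receptor that restrains inflammatory activation in monocytes and macrophages, had 4.44, 0.845, 1.09, 6.15 and 1.96 CPM in LPS replicates 1 to 5 and 5.40, 1.70, 2.83, 7.30 and 1.85 CPM in saline replicates 1 to 5. Replicate 4 was highest and replicate 2 lowest in both groups, and the ranges overlapped. The log2 fold change was -0.40 ± 0.654 (SE, edgeR adjusted p = 0.571, limma-voom interval -1.79 to 0.64).

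The design asks whether these genes differed between LPS and saline mice, and no such difference was detected. By edgeR, 0 of 9 tested genes were called higher and 0 lower at an adjusted p of 0.05, in a fit that called 45% of all 13793 tested genes, 22.4% higher and 22.5% lower. DESeq2 and limma-voom also called 0 of the members, and 0 of the 9 had an unadjusted edgeR p under 0.05, against 53.5% of all tested genes. The groups did not overlap for 0 of 9 members, against 29.8% of tested genes. Of the 9 log2 fold changes 3 were above 0 and 6 below, with a median of -0.14 against 0.0014 over all tested genes. The limma-voom intervals of all tested members but Jun and Jund include changes of more than 2-fold in at least 1 direction.

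**Figure D2:**
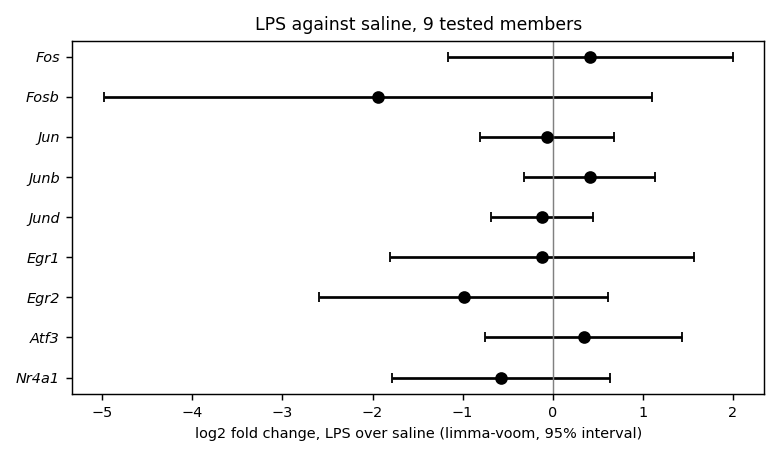
Log2 fold change of the 9 tested genes, LPS over saline, from limma-voom, with points for the estimate and bars for its 95% interval (n = 5 mice each). Every interval includes 0, from the narrow one of Jund (-0.69 to 0.45) to the wide one of Fosb (-4.98 to 1.10).

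Within the ranges of mouse numbers the sign of the difference was the same in all 3 ranges for 4 of the 10 members and varied for 6, among them Fos and Egr1. For Fos the mean log2 CPM of LPS minus saline was -0.0083 in the low range (2 LPS, 2 saline), -0.36 in the middle range (1 LPS, 2 saline) and 2.19 in the high range (2 LPS, 1 saline). Egr1 gave -0.26, -1.27 and 1.91 in the same ranges. Fosb (-1.56, -1.85 and -0.21), Egr2 (-0.14, -0.42 and -1.30) and Egr3 (-1.38, -2.58 and -0.43) were below 0 in each range, and Atf3 (0.86, 0.26 and 0.11) was above 0. These differences rest on 1 or 2 mice a group and were not tested. Between the neighbouring mice of LPS replicate 1 and saline replicate 1, the highest of their groups, LPS minus saline was 0.020 for Fos and -0.22 for Egr1. The sources used here do not say what the mouse numbers stand for.

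Per gene length, Fos and Egr1 were the most abundant members in most libraries. On the deposited RPKM scale Fos averaged 146 ± 145 in LPS and 129 ± 145 in saline, and Egr1 86.1 ± 82.5 in LPS and 97.8 ± 93.3 in saline (SD, n = 5 each). Jun lay between 10.7 and 38.9 RPKM in LPS and between 12.4 and 43.2 RPKM in saline. Egr1 lay above Jun in 8 of 10 libraries. Fos lay above Jun in all 10 libraries and above Egr1 in 8 of 10, namely all 5 LPS and 3 of 5 saline libraries. Jun lay above both Atf3 and Junb in all 10 libraries, while Atf3 lay above Junb in 4 of 10, so the order of these neighbours was not settled. Mean RPKM of Jund, Egr2, Fosb and Nr4a1 were between 0.694 and 1.57 in LPS and between 0.892 and 2.13 in saline.

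The ratio of Fos to Egr1 counts moved far less than either gene. It was 1.21, 1.03, 1.25, 0.961 and 1.82 in LPS replicates 1 to 5 and 1.02, 0.862, 0.681, 0.644 and 1.09 in saline replicates 1 to 5. Over 10 libraries the ratio spanned 2.82-fold where Fos itself spanned 25.9-fold. The group ranges of the ratio overlapped, and their difference was not tested.

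The spread between mice of a group was wide for most of these genes. The pooled within-group SD of log2 CPM was 1.56 for Fos, 1.66 for Egr1, 2.25 for Fosb, 1.53 for Egr2 and 1.03 for Atf3, against a median of 0.29 over the 9790 genes that averaged 5 CPM or more. Among those genes Fos stood at the 99.7th percentile of SD, Egr1 at the 99.8th and Atf3 at the 98.9th. Jun (SD 0.70, percentile 96.5) and Junb (SD 0.67, percentile 96.0) were above most genes as well, while Jund had an SD of 0.37. LPS replicate 1 was the highest LPS mouse for 8 of 10 members, saline replicate 1 the highest saline mouse for 9 of 10, and saline replicate 5 the lowest saline mouse for 9 of 10. The lowest LPS mouse was replicate 5 for 4 members and replicate 3 for 4. The 2 top mice are those with neighbouring numbers.

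**Figure D3:**
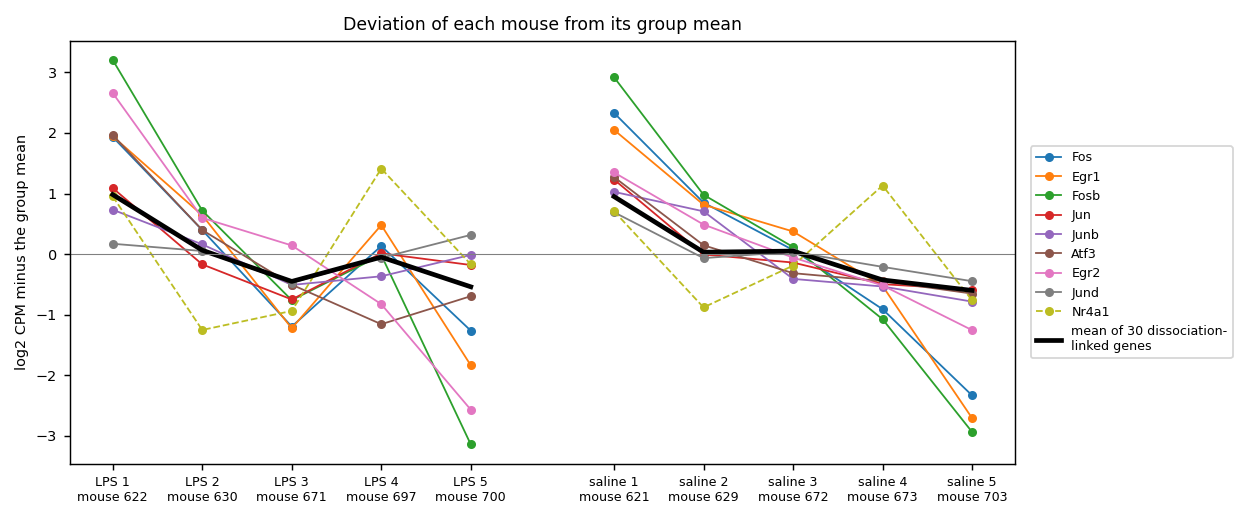
Deviation of each mouse from the mean of its group, in log2 CPM, for the 9 tested genes and for the mean of 30 dissociation-linked genes (thick black line), LPS mice at left and saline mice at right. Lines only join the points of a gene and carry no order. Most genes are high in replicate 1 of both groups and low in saline replicate 5, while Nr4a1 (dashed) peaks in replicate 4.

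Co-variation between mice was examined after subtracting the mean of each group from log2 CPM, so that no difference between LPS and saline enters it. Most members rose and fell together: 22 of the 36 pairs of tested members passed an adjusted p of 0.05 in an exact two-sided permutation of mice within groups (24 before adjustment over the 36 pairs, 20 by rank correlation after it). The median Pearson r was 0.78 over the 36 pairs, beside -0.0022 over all 95116528 pairs of tested genes. Fos and Egr1 were the closest pair, with r = 0.978 and rho = 1.0 over 10 mice (exact permutation p = 6.94e-05, the smallest the 14400 arrangements allow; adjusted p = 0.000833 for r and 0.0025 for rho), and r = 0.972 without the 2 mice farthest from the median of Fos. Fosb gave r = 0.964 with Egr1 and 0.958 with Fos, and 0.931 with Egr2. Fos gave r = 0.898 with Jun and 0.882 with Junb. Of the 36 pairs 11.1% had an r of at least 0.9, beside 0.338% of all pairs of tested genes.

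The 21 pairs among Fos, Fosb, Jun, Junb, Egr1, Egr2 and Atf3 had r between 0.652 and 0.978, and all but Jun with Egr2 passed (r = 0.677, exact permutation adjusted p = 0.0569). Jund joined its JUN relatives, with r = 0.815 with Jun and 0.762 with Junb, but was weaker with Egr2 (0.271) and Fosb (0.519). In LPS replicate 5, where Fos, Egr1, Egr2 and Fosb were lowest, Jund was at its highest LPS level. Jund with Fos gave r = 0.719 over all mice and did not pass (exact permutation adjusted p = 0.0569). Leaving out 1 mouse moved it between 0.518 without saline replicate 1 and 0.929 without LPS replicate 5, and it passed only in the last of these (exact permutation adjusted p = 0.005). Nr4a1 gave r between 0.115 and 0.481 with the other 8 genes, and 0 of these 8 pairs passed the exact permutation test. That its correlations differ from those of the other members was not tested.

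**Figure D4:**
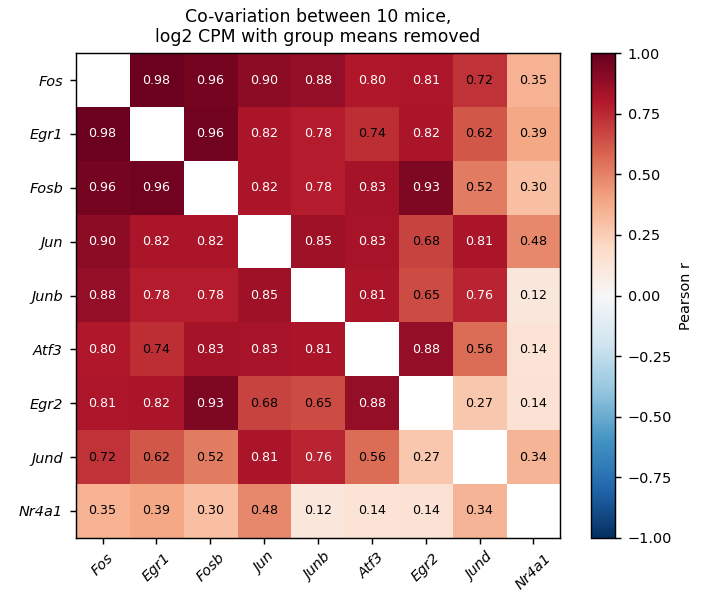
Pearson r between each pair of the 9 tested genes over 10 mice, on log2 CPM with the mean of each group removed, as a colour from -1 to 1 and as a number in each cell. Values are highest among Fos, Egr1 and Fosb (0.958 to 0.978) and low in the row of Nr4a1 (0.115 to 0.481) and for Jund with Egr2 (0.271).

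The co-variation leaned on a few mice. Without saline replicate 1, 9 of 36 pairs passed the exact permutation test, without LPS replicate 1 it was 11, and without saline replicate 5 it was 14. Without replicate 1 of both groups only 3 pairs passed, among Fos, Egr1 and Fosb: Fos with Egr1 (r = 0.976), Fosb with Egr1 (0.945) and Fos with Fosb (0.912), each with an exact permutation adjusted p of 0.0208, and the median r was 0.496. In all 10 mice, with the means of the mouse-number ranges removed as well as those of the groups, 4 pairs passed: those same 3 (r = 0.961, 0.907 and 0.904) and Fos with Jun (0.874), with a median r of 0.603. In this setting mice were still permuted within groups and across ranges, so its p values are approximate rather than exact. The 3 pairs among Fos, Egr1 and Fosb passed under each of the 16 other settings tried.

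Whether this co-variation followed genes known to be induced during tissue dissociation was looked at with a list of 31 such genes, none of them a member. The list holds other immediate early genes (Ier2, Btg2, Zfp36), heat shock genes (Hspa1a, Hsp90aa1, Dnajb1) and feedback regulators (Nfkbia, Socs3, Dusp1). Many of these are also known targets of inflammatory signals. Since it holds genes of the members' own class, co-variation with it cannot tell dissociation apart from other stimuli of that class. The list was chosen with earlier results of these data known. The mean deviation of its 30 tested genes from the group mean, in log2 CPM, was 0.98, 0.063, -0.45, -0.051 and -0.54 in LPS replicates 1 to 5 and 0.95, 0.030, 0.049, -0.43 and -0.60 in saline replicates 1 to 5. Replicate 1 was thus highest and replicate 5 lowest in both groups, as for Fos.

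Against this mean, 7 of the 9 tested members passed an adjusted p of 0.05 in the exact permutation test over 9 comparisons (8 before adjustment, 7 by rank correlation). How many of all tested genes pass against this mean was not counted, so no background share stands beside the 7 of 9. Fos gave r = 0.955 and rho = 0.927 (exact permutation adjusted p = 0.000938 and 0.00333), Jun r = 0.951, Fosb 0.945, Egr1 0.915, Atf3 0.885, Egr2 0.852 and Junb 0.824. Jund (r = 0.691, exact permutation adjusted p = 0.0516) and Nr4a1 (r = 0.383, exact permutation adjusted p = 0.314) did not pass. With the means of the mouse-number ranges also removed, Junb no longer passed (r = 0.516, permutation adjusted p = 0.163). Nr4a1 did pass there (r = 0.742, permutation adjusted p = 0.0425), so the count stayed at 7. Mice were permuted across ranges in this setting, so these p values are approximate rather than exact. The 2 mice farthest from the median of the list mean were LPS replicate 1 and saline replicate 1. Without them Fos kept r = 0.947, Egr1 0.945 and Fosb 0.910, each with an exact permutation adjusted p of 0.0156. For the other 4 r was lower without those mice and did not pass: 0.741 for Jun, 0.678 for Egr2, 0.566 for Junb and 0.491 for Atf3, with exact permutation adjusted p between 0.147 and 0.335. Fewer mice also make it harder to pass, and the change in r was not tested.

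**Figure D5:**
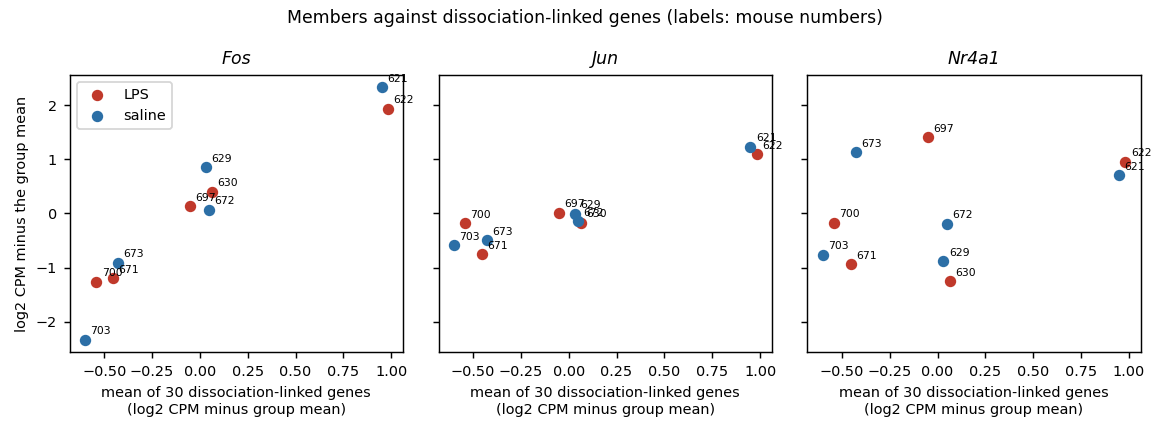
Deviation of Fos, Jun and Nr4a1 from the group mean (vertical axis, log2 CPM) against the mean deviation of 30 dissociation-linked genes (horizontal axis, log2 CPM) in each of 10 mice, LPS in red and saline in blue, labelled by mouse number. Fos follows the list mean along its whole range (r = 0.955, and 0.947 without replicate 1 of both groups), Jun less closely without these mice (0.951 and 0.741), and Nr4a1 has a lower r (0.383 and -0.048).

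Of the 30 list genes, 28 had a positive r with Fos and 15 passed the exact permutation test after adjustment over 30. Zfp36, whose protein degrades AU-rich transcripts, gave r = 0.980, Btg2, an antiproliferative gene, 0.970, and Ppp1r15a, which reverses the translational stress response, 0.889. Csrnp1 (r = -0.038) and the heat shock gene Hsph1 (-0.050) were the 2 below 0. Of the heat shock genes on the list only Hspa1a passed (r = 0.731, exact permutation adjusted p = 0.021). Hspa1b, Hsp90aa1, Dnajb1, Hspa8, Dnaja1 and Hsph1 did not (exact permutation adjusted p from 0.0866 to 0.914). The median r with Fos was 0.70 over the 30 genes and -0.017 over the 9789 ranked genes that averaged 5 CPM or more. The labels record no dissociation time for a mouse, and the part of dissociation in this co-variation was not tested.

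Ranked by r with Fos over 10 mice among those 9789 genes, the 6 genes outside the set with the highest values were Zfp36, Btg2, Catsper2 (r = 0.960), Mir1894 (0.945), LOC102641236 (0.945) and LOC105244211 (0.943). Zfp36 averaged 1088 ± 535 CPM in LPS and 756 ± 327 CPM in saline (log2 fold change 0.52, edgeR adjusted p = 0.193), and Btg2 697.1 ± 359 CPM in LPS and 1346 ± 747 CPM in saline (-0.95, edgeR adjusted p = 0.0568), so neither was called between the groups. LOC102641236 was lower in LPS, at 2.82 ± 1.42 CPM in LPS and 15.7 ± 9.73 CPM in saline (log2 fold change -2.47, edgeR adjusted p = 0.000366). Catsper2, a subunit gene of a sperm calcium channel, was higher, at 14.6 ± 4.02 CPM in LPS and 8.73 ± 3.20 CPM in saline (edgeR adjusted p = 0.0358). The first 60 genes held 4 members and 6 dissociation-linked genes.

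With LPS against saline, 14 of the 30 tested dissociation-linked genes were called higher, 0 lower and 16 were not called, with a median log2 fold change of 0.72. Among all tested genes 22.4% were called higher and 22.5% lower. The 3 with the smallest adjusted p were Socs3, a feedback inhibitor of cytokine signalling, at 139 ± 13.9 CPM in LPS and 17.1 ± 8.73 CPM in saline (log2 fold change 3.02, edgeR adjusted p = 1.02e-06), Nfkbia, the NF-kappa-B inhibitor (415 ± 104.5 CPM in LPS and 80.4 ± 22.3 CPM in saline, 1.5e-06), and Ier3 (636 ± 163 CPM in LPS and 61.5 ± 37.2 CPM in saline, 1.14e-05). In LPS replicate 1 the heat shock gene Hspa1a had 112 CPM, where the other 4 LPS mice had at most 5.30 CPM, and without that mouse neither Hspa1a (edgeR adjusted p = 0.983) nor Hspa1b (0.292) was called. Hspa1a lost its call when any of 5 mice was left out, that mouse among them. Dnaja1 also lost its call without LPS replicate 1 (edgeR adjusted p = 0.0534), and Hsph1 when any of 7 mice was left out (edgeR adjusted p up to 0.114). With the group-centred mean of this list added as a term, which removes variation between mice that follows it, 1 of the 9 members was called: Fosb was lower in LPS (log2 fold change -1.66, edgeR adjusted p = 0.00909), in a fit that called 22.5% of all genes lower. This fit was added after the data had been seen.

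Some other AP-1 family genes were called between the groups. Of 11 relatives (FOSL, BATF, JDP2, ATF and small MAF genes) 9 were tested, with a median log2 fold change of 0.72. In LPS 6 were called higher (Batf, Batf2, Fosl2, Jdp2, Mafg and Mafk), 1 lower (Atf2) and 2 were not called. The shares over all tested genes were 22.4% higher and 22.5% lower. This list, like the others, was chosen with earlier results of these data known. Batf, which pairs with JUN proteins and IRF factors, had 22.1, 23.1, 23.7, 21.1 and 24.3 CPM in LPS replicates 1 to 5 and 8.50, 5.52, 5.90, 5.30 and 4.13 CPM in saline replicates 1 to 5. The groups were far apart and, unlike for Fos, the mice of each group lay close together (log2 fold change 1.96 ± 0.168, SE, edgeR adjusted p = 3.42e-06). Batf2 averaged 13.5 ± 5.43 CPM in LPS and 3.57 ± 1.02 CPM in saline (log2 fold change 1.92, edgeR adjusted p = 0.000221), and Fosl2, a FOS relative expressed for longer after a stimulus, 36.1 ± 23.2 CPM in LPS and 11.6 ± 1.31 CPM in saline (1.64, edgeR adjusted p = 0.000967). Fosl1 was listed at 0 in every library. Mafk and Mafg lost their call when any of 7 and any of 3 mice was left out, with edgeR adjusted p up to 0.118 and 0.0602.

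Of 7 genes that act with EGR or NR4A proteins, 4 were tested and 1, the retinoid X receptor gene Rxrb, was called higher, at 25.3 ± 8.24 CPM in LPS and 16.9 ± 1.93 CPM in saline (log2 fold change 0.58, edgeR adjusted p = 0.0347). That call was lost when any of 6 mice was left out (edgeR adjusted p up to 0.0862). Over all tested genes the share called higher was 22.4%. Egr4 was listed at 0 in every library, and Nr4a2 and Nr4a3 were too low to be tested. The EGR corepressor genes Nab1 and Nab2 were not called.

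Genes upstream of the immediate early response, namely kinases and the factors that bind immediate early promoters, formed a list of 18, all tested. Of these, 0 were called higher and 7 lower in LPS, beside 22.4% and 22.5% of all tested genes. The 7 were Mapk8, Mapk14, Mkl2, Map2k1, Elk3, Elk4 and Creb1, and the median log2 fold change of the 18 was -0.40. Mapk8, which encodes the JUN kinase JNK1, averaged 11.7 ± 3.04 CPM in LPS and 21.0 ± 2.66 CPM in saline (log2 fold change -0.84, edgeR adjusted p = 0.00286). Mapk14, the p38 alpha gene, averaged 131 ± 27.0 CPM in LPS and 203 ± 19.1 CPM in saline (-0.63, edgeR adjusted p = 0.00341), and Mkl2, a coactivator of serum response factor, 17.3 ± 2.56 CPM in LPS and 27.2 ± 4.56 CPM in saline (-0.65, edgeR adjusted p = 0.00537). Srf itself was not called (6.77 ± 1.31 CPM in LPS and 5.99 ± 1.08 CPM in saline, edgeR adjusted p = 0.539). The call of Creb1 was lost when any of 7 mice was left out, with edgeR adjusted p up to 0.0764.

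Summed markers of each other cell type were far below the summed microglia markers, and none of these sums passed a test against Fos. Single genes could come close: the astrocyte marker Slc1a3 averaged 211 ± 77.9 CPM in LPS and 381 ± 22.1 CPM in saline, beside 212 ± 29.1 CPM in LPS and 545 ± 62.2 CPM in saline for the microglia marker Sall1. Summed CPM over 5 or 6 markers per list were 32.4 to 62.6 in LPS and 9.26 to 17.5 in saline for monocytes, 1.92 to 27.8 in LPS and 0.162 to 1.12 in saline for neutrophils, and 4.77 to 10.6 in LPS and 48.3 to 72.3 in saline for endothelium, with Cldn5 at 0 in every library. Markers of a list did not move alike. Among the monocyte markers Fn1 averaged 34.4 ± 11.1 CPM in LPS and 0.198 ± 0.121 CPM in saline and made up most of the sum in LPS, whereas Ccr2 was called lower, at 2.45 ± 1.54 CPM in LPS and 10.2 ± 2.93 CPM in saline (log2 fold change -2.06, edgeR adjusted p = 0.000706), and Ly6c2 was at most 0.634 CPM in LPS and 0 in every saline library. The endothelial sum was nearly all Pecam1, at 7.05 ± 2.38 CPM in LPS and 54.1 ± 10.3 CPM in saline. The sums were 144 to 363 in LPS and 366 to 426 in saline for astrocytes, 3.60 to 6.44 in LPS and 4.06 to 8.40 in saline for neurons, 44.4 to 70.9 in LPS and 51.8 to 84.3 in saline for oligodendrocytes, 6.72 to 27.9 in LPS and 8.91 to 14.2 in saline for border macrophages, and 0.307 to 2.01 in LPS and 0.142 to 1.25 in saline for T, NK and B cells. Of 14 library measures set against Fos, including these sums, total counts (r = -0.046) and the share of counts in the shortest genes (r = -0.306), 0 passed the exact permutation test after adjustment over 14 (1 before it, the T, NK and B cell sum with r = 0.734 and adjusted p = 0.278). A p that misses the threshold does not show that these measures are unrelated to Fos, and their part in the spread of Fos was not tested further. The share of counts in the shortest genes was itself 20.2 to 28.9% in LPS and 12.4 to 17.5% in saline. The groups did not overlap in it, which an r with group means removed does not show.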

How the data were processed

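The kits were SMARTer ultra low (from 5 ng RNA) for amplification and Ovation ultra low (from 6 ng amplified product) for libraries, per the labels' protocols; no molecular identifiers are mentioned, so counting limits cover counting error only. The authors deposited raw counts per gene, for which the submitters' processing notes name featureCounts, GRCm38 and mm10. The sources used here give no aligner, annotation or use of strand, so overlapping and antisense genes are uncertain. The authors also deposited RPKM values, which serve here to compare levels between genes and as an alternative test. The row of the count table with no gene name was left out, and 0 columns could not be mapped. Each replicate is 1 mouse, and each pair within a group differed by more than sampling noise (chi-square per degree of freedom at least 14.5).

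The edgeR 4.0.16 fit (R 4.3.3) took the counts of all genes (TMM, filterByExpr, quasi-likelihood F test, Benjamini-Hochberg over 13793 genes, threshold 0.05, no covariate). Standard errors are from log2 CPM with a prior count of 2, and 95% intervals from limma 3.58.1 (voom). Scripts were tested on simulated data. Correlations used log2 CPM with group means removed and exact two-sided permutation of mice within groups in Python 3.11.15, with Benjamini-Hochberg adjustment over the 36 pairs or the 9 members. Where range means were removed too, mice were not kept within ranges in the permutation, so those p values are approximate. Alternatives were RLE, upper-quartile and library-size scaling, other filters, DESeq2 1.42.0, limma-voom, removal of the gene-length trend, log2(RPKM + 1) and log2(RPKM + 0.1) with limma, ranges of mouse numbers as a term, a prior count of 0.5, a list mean over genes of at least 10 CPM, and each mouse left out. Leaving out replicate 1 of both groups together and adding the dissociation-linked mean as a term were chosen after seeing the data. Named genes were all members, the 3 called genes of each list with the smallest adjusted p (or, with no call, the 2 of highest mean), 4 microglia markers (1 of which is not reported here), and the 6 genes most like Fos; genes named for a lost call, for r with Fos as a low or uncalled list gene or as another cell type marker were picked with their values known. The members and lists were chosen with earlier results of these data known. Gene coordinates and upstream sequences are from RefSeq (GRCm38.p6), in which 8 of the 10 members had an upstream sequence.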

Additional observations from a re-analysis of the deposited data

Results flagged for a closer look

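Of the 20 groups of 5 mice (10 genes in LPS and in saline), 9 had a sample whose gap to the nearest other mouse took more than 0.71 of the whole range of the group, Dixon's critical value for 5 samples at 0.05. For normal values chance alone flags about 1 in 20 groups. That rate does not hold for CPM, which are skewed towards high values. On log2 CPM none of the 20 groups passed 0.71, and the same 9 samples had gaps of 0.331 to 0.681 of the range. In all 9 the sample was the highest and was replicate 1 of its group. In LPS replicate 1 these were Fos at 811 CPM (next highest 279), Fosb at 11.9 CPM (next 2.00), Jun at 122 CPM (next 57.7), Egr2 at 17.2 CPM (next 4.00), Egr3 at 2.68 CPM (next 0.231) and Atf3 at 69.1 CPM (next 23.2). In saline replicate 1 they were Fosb at 29.1 CPM (next 7.47), Jun at 139.8 CPM (next 59.2) and Atf3 at 32.6 CPM (next 14.9). The mice of these replicates have neighbouring numbers. The genes are not independent of each other, since they moved together between mice. The dissociation-linked mean was also highest in these mice, at 0.98 in LPS and 0.95 in saline above the group mean on the log2 scale, and its part in these values was not tested.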

How the results depend on the processing

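No paired analysis was possible because the labels give the groups no shared replicate numbers: replicates were numbered in the order listed. Mouse-number ranges, which hold unequal numbers of LPS and saline mice, were used as a block instead (given here as ranges). No tested member was called under any of 24 other settings (22 for Nr4a1, which was below the RPKM minimum) except Fosb, called lower without LPS replicate 1 (-3.15) and with the dissociation-linked mean as a term (-1.66, 1 member lower). Signs turned on the log2 scale, with no call, when the gene-length trend was removed (Fos -0.065, Jun 0.0021, Egr2 0.099), with mouse-number ranges as a term (Egr1 0.045) and without replicate 1 of both groups (Jund 0.042). With the gene-length trend removed Junb fell from 0.30 to 0.0026. That fit called 2711 of 13199 genes higher and 2372 lower, beside 3093 and 3110 of 13793 in the main fit. With 1 mouse left out, log2 fold changes ran from -0.65 to 1.07 for Fos, -0.92 to 0.50 for Egr1, -1.42 to 0.30 for Egr2, -0.47 to 0.36 for Jun, -0.26 to 0.074 for Jund, and -0.16 to 1.16 for Atf3, and 0 to 1 members were called lower. With the ranges as a term, 13 list genes rather than 8 were called lower, in a fit that called 2904 of all 13793 tested genes lower. Pairs passing numbered 22 with all mice, 9 to 28 with 1 mouse left out, 4 with the range means removed and 3 without replicate 1 of both groups; the median r was 0.783, then 0.672 to 0.847, 0.603 and 0.496. Members passing against the dissociation-linked mean were 7, and 3 without those mice. The r of some pairs turned sign: with range means removed Junb with Egr2 gave -0.011 and Jund with Egr2 -0.119. Without replicate 1 of both groups Fosb, Junb, Egr2 and Atf3 with Nr4a1 gave -0.075, -0.347, -0.353 and -0.695, Jund with Egr2 -0.272, and Nr4a1 with the list mean -0.048. With 1 mouse left out, r with Nr4a1 ran from -0.063 to 0.299 for Junb, -0.157 to 0.316 for Egr2 and -0.227 to 0.499 for Atf3. With range means removed Nr4a1 passed against the list mean (r = 0.742, approximate permutation adjusted p = 0.0425) and Junb did not (r = 0.516, 0.163). Of the r values under other settings 616 kept their side of the threshold, 88 lost it, 12 gained it and 13 turned sign. The cause of these shifts was not tested, beyond fewer mice where mice were left out. Other scalings moved the median log2 fold change of all genes by less than 0.1. Counts below about 3 reads limit Fosb and Egr3 in single libraries.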
